A study of Mus musculus with 2 samples.

Results

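Nuclear receptors are transcription factors that are switched, in many cases, by small fat-soluble ligands such as thyroid hormone, retinoic acid, steroids, oxysterols and fatty acids. The 42 receptor genes described here were taken by name, by a rule that uses no measured value, from the 21938 protein-coding genes annotated on the mouse autosomes and sex chromosomes. They comprise 18 genes of the NR1 family, 12 of NR2, 8 of NR3 and 4 of NR5, NR6 and NR0. Other receptors of the superfamily were not analysed here. Many NR1 receptors bind DNA as a pair with a retinoid X receptor (RXR), usually at repeats of the core element AGGTCA, whereas steroid receptors such as the glucocorticoid receptor pair with themselves at inverted repeats. Bound receptors recruit coactivators or corepressors, often depending on the ligand. In the brain, thyroid hormone and retinoid receptors are known for their part in neuronal maturation, and orphan receptors such as the COUP-TFs and TLX for their part in patterning and in neural stem cells.

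Open chromatin was mapped by DNase-seq, in which nuclei are cut with the nuclease DNase I and the freed ends are sequenced. The tissue was midbrain of newborn B6NCrl mice at day 0, described as healthy, with males and females pooled. There was 1 group of 2 biological replicates, no treatment and no second condition, so no contrast between conditions can be made, and both biosamples trace to the same pooled donor entry. All values below are descriptions of these 2 libraries, set beside the same values for all protein-coding genes.

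The libraries differed in yield before any gene was considered. Replicate 1 gave 228203 usable peaks and replicate 2 gave 122593, a ratio of 1.86, and their read depth is unknown. Each peak is 150 bp wide and carries a signal from the authors that was not scaled between libraries (median 44 in replicate 1 and 18 in replicate 2), so each signal is read only by its percentile, the percent of that library's own peaks with a lower signal. A merged region holding a peak of each library is called shared, and there were 74833 of them. The labelled tissue was checked against marker genes at promoters. All 5 midbrain genes (En1, En2, Otx2, Pax5, Meis2) and all 6 pan-neuronal genes had a shared region at the promoter, although in Pax5 the replicate 2 peak of that region lay beyond the promoter window, against 0 of 4 forebrain, 0 of 5 microglial and 0 of 4 liver genes, and 1 of 4 each for endothelium (Kdr) and for heart and muscle (Tnni3). In bulk tissue, a site open in few cells and a site weakly open in many cells cannot be told apart.

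Most receptor genes had an open promoter in both libraries. A peak counted as a promoter peak when it reached to within 500 bp of an annotated start of transcription of that gene. A shared region counted when any of it reached the same window. Such a shared promoter region was found at 33 of the 42 genes, 78.6% (95% Wilson interval 64.1 to 88.3, for counting error only), against 61% of all protein-coding genes. Replicate 1 had a promoter peak at 35 members, 83.3% against 68.9% of all genes, and replicate 2 also at 35, 83.3% against 62.6%. By the intervals of varying width called hotspots, 34 members (81%) were shared, against 62.1%. The added gene is Nr2f1, where no replicate 1 hotspot itself reached the window. Only 5 members, 11.9%, had no promoter peak in either library, against 30.4% of all genes. Another 2 had one in replicate 1 only (4.76% against 7.03%), and 2 in replicate 2 only (4.76% against 0.779%).

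The number of annotated start sites moved with these shares, and its part in them was not tested. Receptor genes had a median of 3 separate start-site clusters (start sites within 500 bp joined), against 2 for all genes, and 92.9% of them had more than 1 cluster, against 60% of all genes. Among genes with several clusters, 33 of 39 members (84.6%) and 72.1% of all such genes had a shared promoter region. When the 5′-most start site alone was used, 26 members (61.9%, interval 46.8 to 75) and 55.4% of all genes had one, and the background lay inside the interval of the members. Where members had a shared promoter, its signal was not high for an open promoter. The strongest shared promoter region of each member was taken by mean percentile. Its median signal over members was 107 in replicate 1 and 46 in replicate 2, against 119 and 55 over all genes with one. The 5 strongest by mean percentile were Esrra (139 in replicate 1 and 75 in replicate 2, percentiles 99.5 and 98.8), Ppard (133 and 76), Nr1h2 (129 and 76), Nr1d2 (137 and 70) and Rxrb (134 and 68). The Rxrb region also lies near start sites of Slc39a7 and Gm20427. Esrra encodes an orphan receptor that regulates mitochondrial genes, Ppard a fatty acid receptor, Nr1h2 the oxysterol receptor LXR-beta, Nr1d2 the circadian repressor Rev-erb-beta and Rxrb a retinoid X receptor. In the sentences below, a pair of values gives the signal in replicate 1 and then in replicate 2 at the strongest shared promoter region of the gene, unless another region is named.

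**Figure D1:**
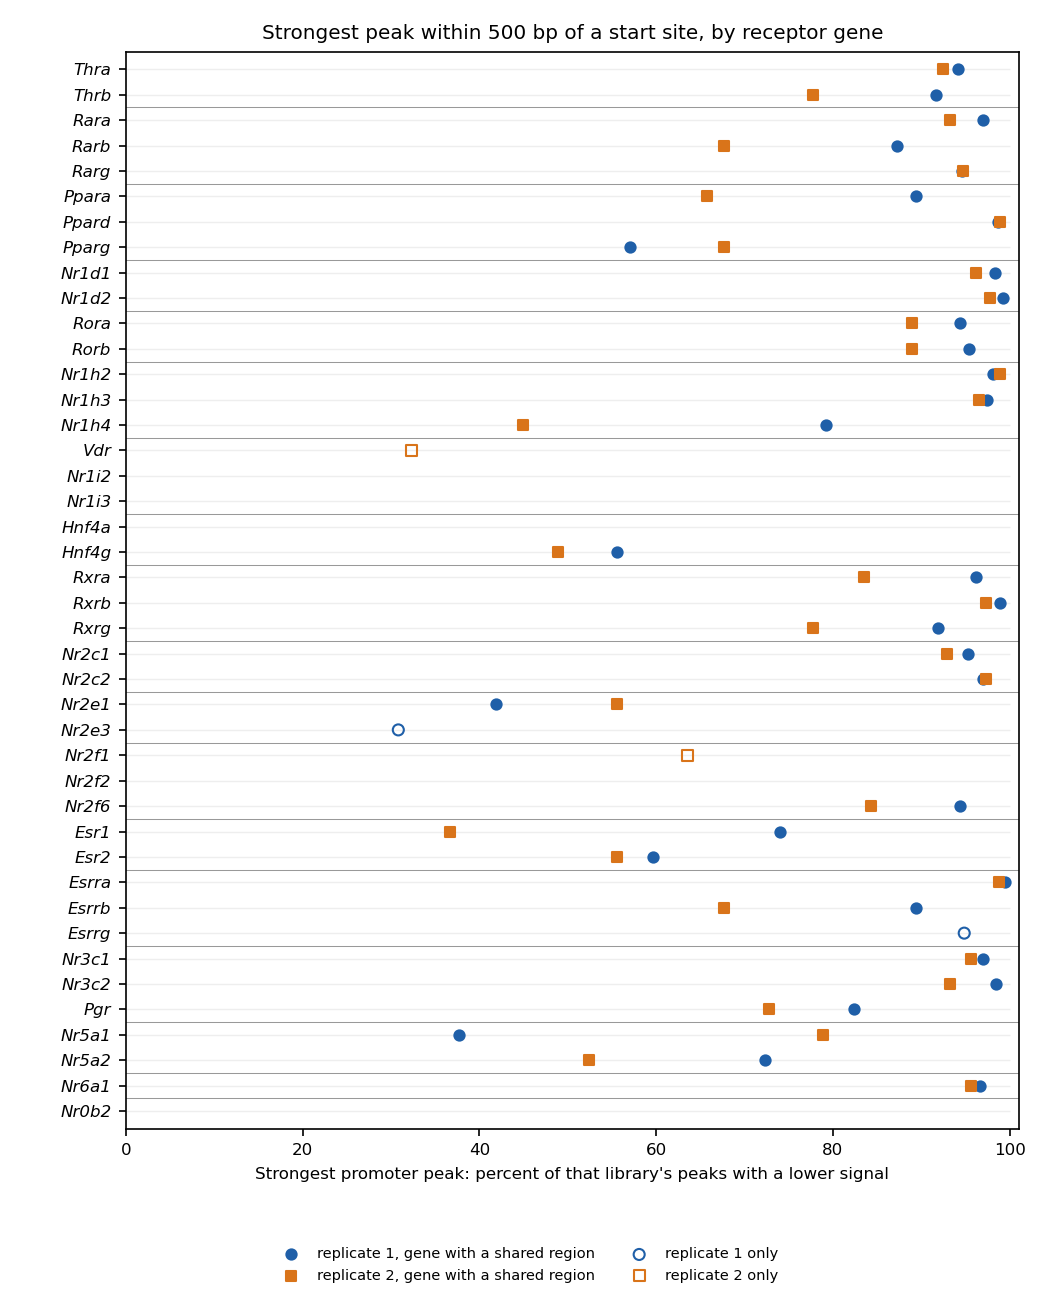
Strongest promoter peak of each of the 42 receptor genes, as the percent of peaks of the same library with a lower signal (x axis), for replicate 1 (blue circles) and replicate 2 (orange squares). Filled symbols are the 33 genes with a shared promoter region, open symbols the genes with a peak in a single library, and the 5 rows without a symbol have none.

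The receptors for thyroid hormone and retinoic acid, and the RXRs with which they pair, all had a shared promoter. Thra, which encodes the main thyroid hormone receptor of the brain, had signals of 106 in replicate 1 and 53 in replicate 2 at its strongest shared promoter region, and Thrb, the beta receptor, had 97 and 32. Both lie above the 75th percentile in each library. Among the retinoic acid receptors, Rara had 121 and 55 and Rarg 108 and 59. Rarb, which retinoic acid itself induces in many cells, had 86 and 25, and was the lowest of the retinoic acid receptors in both libraries. Below Rxrb, Rxra had 116 and 38 and Rxrg 98 and 32. By these strongest regions the 3 RXRs kept the same order in both libraries. That Rxra region, however, lies at a start-site cluster without a protein-coding transcript of Rxra. The Rxra cluster with protein-coding starts and a shared region had 75 and 37. By protein-coding starts, Rxra therefore lay below Rxrg in replicate 1 and above it in replicate 2.

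The sensors of fatty acids, oxysterols and heme ranged from the top of the lists to the middle. Ppard, Nr1h2 and Nr1d2 were among the 5 strongest. Nr1d1, encoding Rev-erb-alpha, had 130 and 64, and Nr1h3, encoding LXR-alpha, had 124 and 65. That Nr1h3 region lies at a start-site cluster without a protein-coding transcript of Nr1h3, and also near start sites of Acp2 and Gm13783. The cluster with the protein-coding starts of Nr1h3 had 68 and 22. The ROR genes, whose products activate clock genes that Rev-erbs repress, had 107 and 46 (Rora) and 112 and 46 (Rorb). Ppara, the fatty acid receptor of fasting liver, had 91 and 24. Pparg, the receptor that drives fat cell formation, had 31 and 25 at its strongest shared promoter region, and Nr1h4, the bile acid receptor FXR, had 50 and 17. These 2 regions lay between the 21st and the 68th percentiles of their lists.

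Of the 9 genes without a shared promoter region, 5 belong to the groups of Vdr, HNF4 and SHP. Vdr (vitamin D), Nr1i2 (the xenobiotic receptor PXR) and Nr1i3 (the xenobiotic receptor CAR) had none, nor did Hnf4a, a master regulator of hepatocytes, and Nr0b2, a repressor of bile acid synthesis. Vdr had 2 weak promoter peaks in replicate 2 (11 and 14), at the third of its 5 start-site clusters, and none in replicate 1, while the other 4 had none in either library. Nr1i2 was the only member with 0 shared regions in the gene and its flanks of 10 kb, where replicate 1 had 5 peaks and replicate 2 had 4, none of them overlapping. Nr1i3 and Nr0b2 had 3 shared regions each, of which 2 each lay at promoters of neighbouring genes, Tomm40l and Nudc. Hnf4a had 2 intronic regions with signals of 95 and 43, and 93 and 26, both within the overlapping gene Hnf4aos. Its relative Hnf4g was open in both libraries at its first start site, with 48 and 18.

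Among the orphan receptors of the NR2 family, the testicular receptors Nr2c1 (111 and 54) and Nr2c2 (121 and 68) were open in both libraries, but the genes known for brain patterning were not uniform. All promoter peaks of Nr2e1, encoding the neural stem cell receptor TLX, also lie near a start site of the neighbouring gene Ostm1. Nr2e1 had 40 in replicate 1 and 20 in replicate 2, near the middle of both lists. Its shared region joins peaks of the 2 libraries that overlap by 10 bp, and the gene was not shared when an overlap of 50% was required, when only the stronger 50% of the peaks was used, or when the replicate 1 list was shortened to the length of the other. Nr2e3, a photoreceptor gene, had a single promoter peak, in replicate 1 (35), at the last of its 4 start-site clusters. Of the COUP-TF genes, Nr2f6 had 107 and 39. Nr2f2 lacked promoter peaks in both libraries but had 2 shared regions in its domain, of which the stronger (126 and 60) lay in an intron, centred 1237 bp from the nearest start site. Distances of regions are those of their midpoints. Nr2f1 had promoter peaks in replicate 2 alone.

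By number of promoter peaks, Nr2f1, encoding COUP-TFI, was the member in which the libraries differed most. Replicate 2 had 8 promoter peaks with signals of 14, 14, 16, 19, 19, 19, 22 and 23, spread over 4 of the gene's 5 start-site clusters, and replicate 1 had none. The replicate 2 peaks lay between the 32nd and the 64th percentiles of their list, and 5 of the 6 hotspots of replicate 2 there carried the strongest q-value class. The nearest replicate 1 peak (signal 80) lay 552 bp from a start site, so a window of 1000 bp made the gene shared. The 5′-most start is rich in CpG. Its observed-to-expected ratio of 0.925 placed Nr2f1 in the top decile of all genes, where 96.5% had a shared promoter region. In that decile 4 genes, Nr2f1 included, had a promoter peak in replicate 2 only. Just upstream, both libraries were open again. The domain of Nr2f1 (the gene with flanks of 10 kb) held 12 shared regions, 8 of them upstream, 3 at start sites of the non-coding gene A830082K12Rik and 1 in an exon. The strongest was at a start site of A830082K12Rik, with 129 and 63, and the next, 873 bp upstream of Nr2f1, had 117 and 54.

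**Figure D2:**
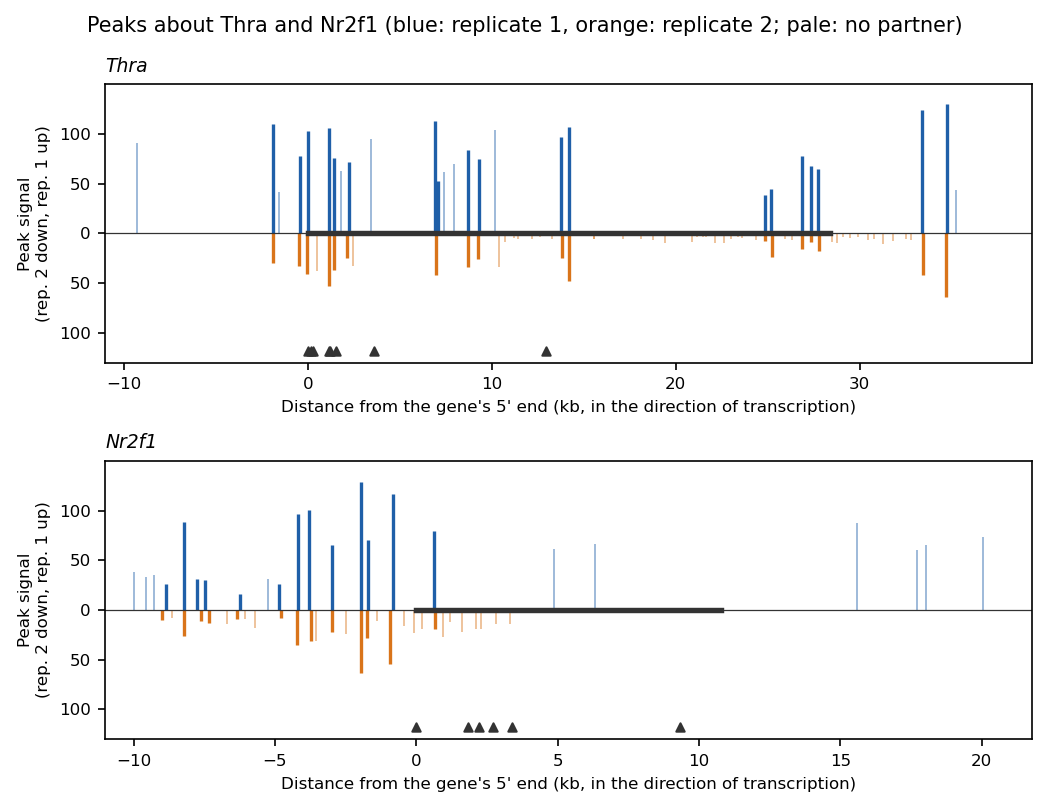
Peaks of replicate 1 (blue, upward) and replicate 2 (orange, downward) about Thra and Nr2f1, by distance from the 5′ end of the gene in kb (x axis) and deposited signal (y axis, not scaled between libraries). Thick black lines are gene bodies, triangles annotated start sites, and pale bars peaks without a partner. At Thra a run of weak replicate 2 peaks crosses the 3′ part of the gene, and at Nr2f1 the start sites carry replicate 2 peaks alone.

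Estrogen-related and steroid receptor genes were mostly open, with the estrogen and progesterone receptors lower in the lists than the corticosteroid receptors. Nr3c1, the glucocorticoid receptor, had 121 in replicate 1 and 62 in replicate 2 at its strongest shared promoter region, and Nr3c2, the mineralocorticoid receptor, had 131 and 55. Pgr (progesterone) had 77 and 28, Esr1 (estrogen receptor alpha) 65 and 15, and Esr2 (estrogen receptor beta) 51 and 20. The corticosteroid receptors therefore lay above the 93rd percentile in both libraries, and the sex steroid receptors between the 36th and the 83rd. Esrrb, an orphan receptor of pluripotent cells, had 91 and 25. Esrrg, encoding an orphan receptor known for its expression in neurons, had a strong promoter peak in replicate 1 (109, percentile 94.9) and none in replicate 2, by peaks or by hotspots. Its domain held 8 shared regions, 1 of them, in an intron, with signals of 120 and 53.

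The remaining families were small. Nr6a1, encoding the germ cell nuclear factor GCNF, which silences pluripotency genes, had 119 and 62 at its strongest shared promoter region. Nr5a1 (the steroidogenic factor SF1) had 38 and 33 and Nr5a2 (LRH1, of liver and gut) 63 and 19. Nr5a1 stood at the 37.7th percentile of replicate 1 and at the 78.9th of replicate 2. Its peaks overlapped by 10 bp at the third start-site cluster, which belongs to no protein-coding transcript, and the gene was no longer shared under 5 of 8 other settings.

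Many receptor genes have start sites far apart, and these were rarely all open. The 42 genes had 144 start-site clusters, of which 51 had a shared region, 62 a peak in replicate 1, 65 a peak in replicate 2, and 70 a peak in neither. Of the 39 members with several clusters, 2 had shared regions at all of them (Esrra and Pgr), 31 at some and 6 at none. Several genes had a shared region at a downstream start and none at the first. In Rarb the first cluster had no peak, and the second, 243 kb downstream, had 86 and 25. Esrrb had no peak at its first cluster and a shared region at the second, 60.5 kb downstream. A further shared region of Esrrb (50 and 15) was centred 1037 bp upstream of its first start, outside the window of 500 bp. Nr3c1 had no peak at its 5′-most start, shared regions at each of the next 4 clusters between 28.1 and 30.1 kb downstream, and a replicate 1 peak alone at the last.

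Other genes were open only at the start that lies furthest upstream, or at both ends. Thrb had shared regions at its first cluster and no peak at the later ones, 303 and 321 kb away. Ppard, Nr1d2, Nr1h2, Nr1h4, Hnf4g, Nr2c1, Nr2e1 and Esr2 were likewise shared at the first cluster, with no peak in either library further down, and Rorb also, with a single replicate 2 peak of signal 13 at its second cluster. Rora was open at its first cluster (107 and 38) and at the last, 636 kb downstream (107 and 46), with 2 replicate 1 peaks and no replicate 2 peak at the cluster between them 542 kb from the first. Rxra had no peak at its first cluster, 75 and 37 at the second and 116 and 38 at the fifth, 63.8 kb downstream, and its first cluster lies 0.761 kb from the second. The replicate 1 promoter peak of Esrrg lay at the third cluster, 389 kb from the first.

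**Figure D3:**
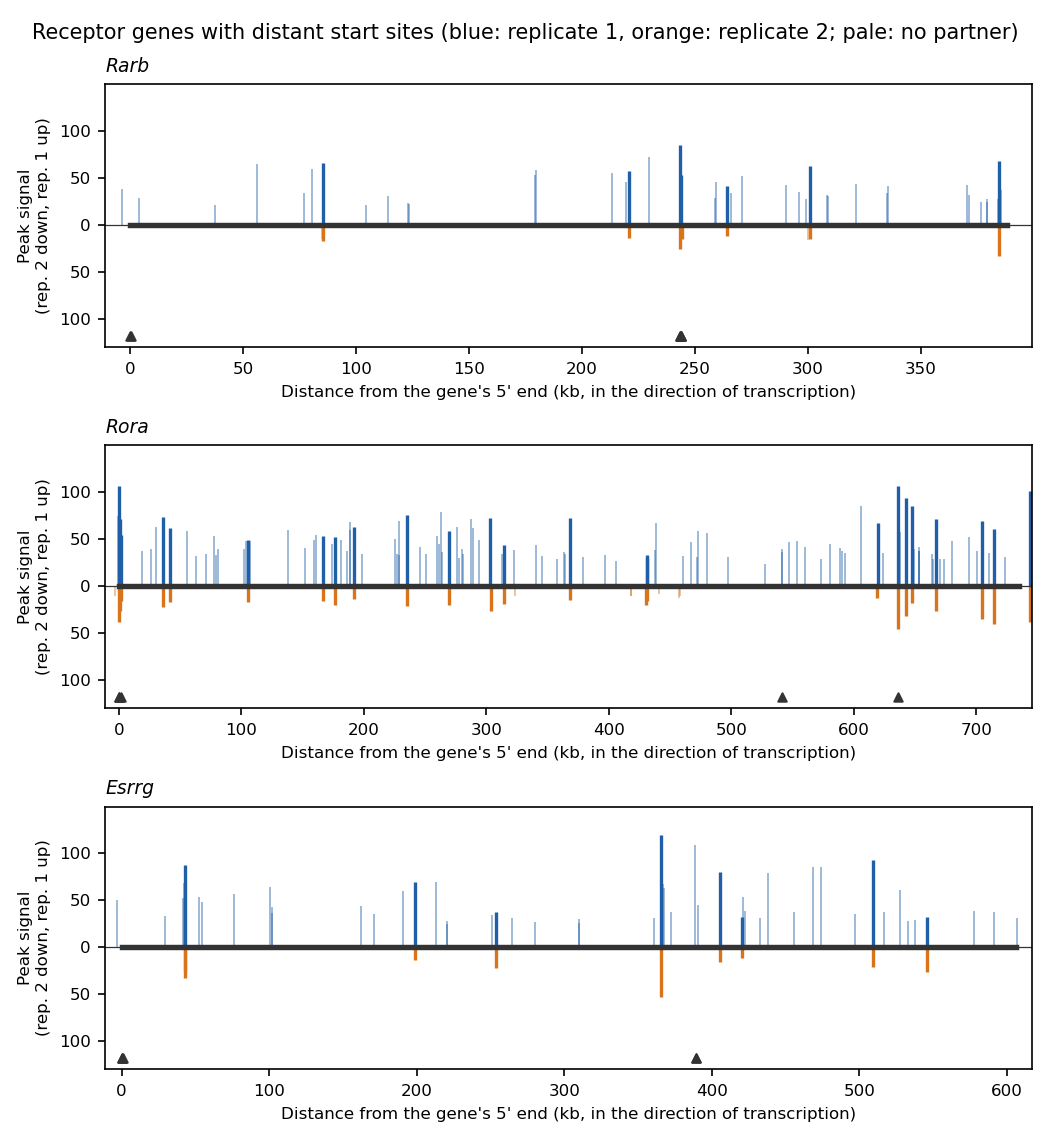
Peaks of replicate 1 (blue, upward) and replicate 2 (orange, downward) along Rarb, Rora and Esrrg, by distance from the 5′ end in kb (x axis) and deposited signal (y axis, not scaled between libraries). Thick lines are gene bodies, triangles annotated start sites and pale bars peaks without a partner. Rarb is open at its downstream starts, Rora at both ends, and the downstream start of Esrrg has a replicate 1 peak without a partner.

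A sequence feature of the open Rarb start was found in RefSeq's promoter of the gene (GRCm38.p6, 250 bases before the start to 50 after). It holds a direct repeat of the core element with 5 bases between the copies, the arrangement known as the retinoic acid response element of this gene. The site lies at chromosome 14, 16575513 to 16575529 on the minus strand, 53 to 37 bases before the RefSeq start and inside an exon of another annotated Rarb transcript. It reads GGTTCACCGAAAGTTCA. The repeat lay 7 bp from the replicate 1 peak of signal 86 and 27 bp from the replicate 2 peak of signal 25, inside a hotspot of replicate 1, partly inside one of replicate 2, and outside both peaks. Of 32851 RefSeq promoters, 0.0974% held such a repeat, and of the 59 promoters of the 38 matched members 1 did.

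The surroundings of the receptor genes were described next. The domains held 714 replicate 1 peaks, 427 replicate 2 peaks and 248 shared regions, each region counted once. The ratio of peaks was 1.67, against 1.86 for the whole lists. Of the shared regions, 66 lay at member promoters, 38 at promoters of other genes, 100 in introns, 7 in exons, 20 upstream and 17 downstream, and 144 were distal, meaning over 500 bp from every annotated start site. A member had a median of 4.5 shared regions, against 3 for all genes. Receptor domains are also longer, with a median of 76.5 kb against 37.4 kb, and per 100 kb the medians were 5.54 and 4.99. In the domains, 35.3% of replicate 1 peaks and 60% of replicate 2 peaks had a partner in the other library, against 33.5% and 64.6% in the whole lists. Just 1 member had no shared region, against 21.3% of all genes.

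**Figure D4:**
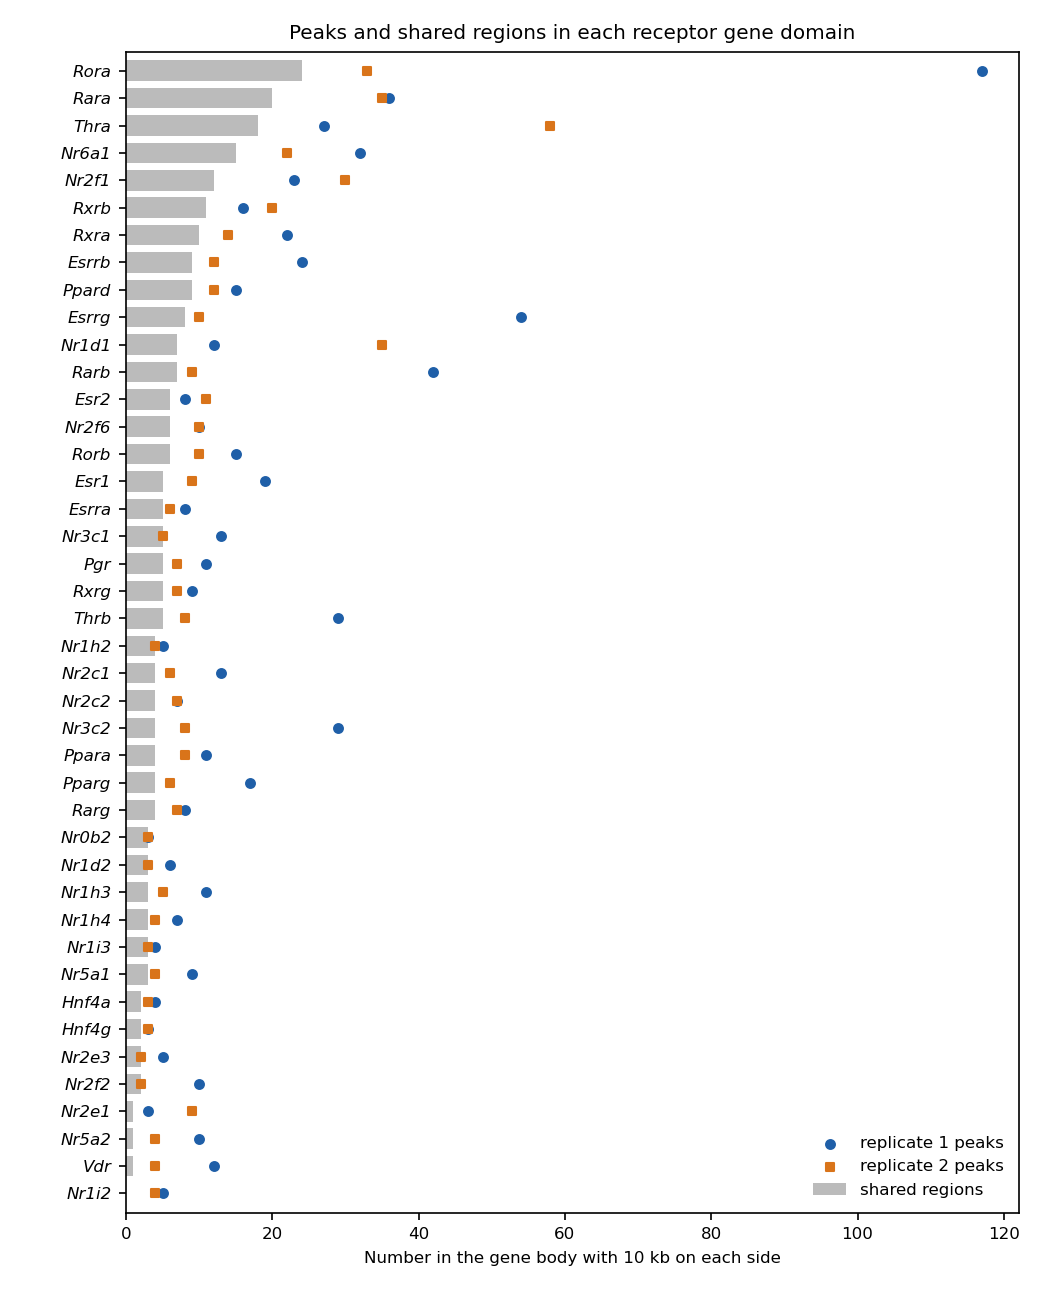
Number of shared regions (grey bars), replicate 1 peaks (blue circles) and replicate 2 peaks (orange squares) in the gene with its flanks of 10 kb (x axis) for each of the 42 receptor genes, ordered by shared regions. Rora has the most shared regions, 24, and Thra and Nr1d1 stand out by having more replicate 2 than replicate 1 peaks.

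The 10 members with the most shared regions were Rora (24), Rara (20), Thra (18), Nr6a1 (15), Nr2f1 (12), Rxrb (11), Rxra (10), Ppard and Esrrb (9 each) and Esrrg (8). Rora spans chromosome 9 from 68653786 to 69388246, Rara chromosome 11 from 98927818 to 98974942 and Thra chromosome 11 from 98740638 to 98769006 (mm10). The count of Rora exceeded that of 99.6% of protein-coding genes, that of Rara 99.3%, and that of Esrrg 89.8%. Density gave another order. The domain of Rora is 754 kb long and held 3.18 shared regions per 100 kb, more than 35.1% of genes, and Esrrg held 1.28. Rxrb held 41.4 per 100 kb, Nr2f1 39, Thra 37.2, Rara 29.8 and Nr1d1 25.5, each denser than at least 97.5% of genes. What surrounds the genes differed too. In Rxrb, 7 of the 11 regions lay at promoters of other genes, among them Ring1, H2-Ke6 and Slc39a7. In Rora 19 of 24 were intronic, in Rara 11 of 20, in Nr6a1 9 of 15, in Esrrb 7 of 9 and in Esrrg 7 of 8. Rxra had 4 intronic regions and 4 downstream of the gene, up to 95 and 52. Ppard had a region with 115 and 64 lying 6470 bp upstream and inside the neighbouring gene Def6.

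The members with the most distal shared regions were Rora with 19, Rara with 17, Thra with 13, and Nr2f1 and Nr6a1 with 9 each. The strongest such region by mean percentile, outside annotated exons, is shown for Rara, Thra and Nr2f1, the last taken before Nr6a1 by alphabet. The sequences are the 150 bp about the midpoint (RefSeq GRCm38.p6), read 5′ to 3′ on the strand of the gene, and hold none of the receptor elements searched.
Rara, chr11:98942096-98942245, plus strand: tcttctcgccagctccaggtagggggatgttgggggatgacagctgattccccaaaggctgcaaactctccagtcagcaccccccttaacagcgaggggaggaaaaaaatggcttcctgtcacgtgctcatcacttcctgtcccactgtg
Thra, chr11:98754766-98754915, plus strand: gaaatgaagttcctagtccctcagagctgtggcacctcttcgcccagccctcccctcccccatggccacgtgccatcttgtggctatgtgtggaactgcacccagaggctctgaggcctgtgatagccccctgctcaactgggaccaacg
Nr2f1, chr13:78200556-78200705, minus strand: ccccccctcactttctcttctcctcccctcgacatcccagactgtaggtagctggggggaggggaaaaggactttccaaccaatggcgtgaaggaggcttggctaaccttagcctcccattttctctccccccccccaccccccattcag
The Rara region (95 and 42) lies in an intron 2458 bp from the nearest start site, and the Thra region (107 and 48) in an intron 1254 bp from one. The Nr2f1 region (117 and 54) is the upstream region described above. They are not all the regions that the choice would take, so the lack of an element here says nothing of the regions not shown. It says only that the letters given in the next paragraph are not in these windows. GC content was 56% at Rara, 60.7% at Thra and 59.3% at Nr2f1.

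Receptor elements were searched on both strands in the same 150 bp of every shared region. The core AGGTCA was present in 15 of the 248 regions of the receptor domains (6.05%), against 5.88% of all 74833 shared regions, a share near the background. The element AAAGGTCA of single receptors of the NR4A type, which contains the core, was present in 3 (1.21%), against 0.365%. The longer element TCAAGGTCA of the estrogen-related receptors and SF1 was present in 0 of 248, against 0.123%. Repeats were built from the core and its variants GGGTCA and AGTTCA, as well as from GGTTCA. Direct repeats with 2, 3 or 4 bases between, the inverted repeat with 3 bases between, and the steroid inverted repeat of AGAACA with 3 bases between were in 0 of 248 regions, and each was in at most 0.0334% of all shared regions. A direct repeat with 1 base between was in 1 receptor region, against 0.0601% of all. It lay in a promoter of Esrra, whose product is itself a nuclear receptor.
Esrra, chr19:6921286-6921435, minus strand: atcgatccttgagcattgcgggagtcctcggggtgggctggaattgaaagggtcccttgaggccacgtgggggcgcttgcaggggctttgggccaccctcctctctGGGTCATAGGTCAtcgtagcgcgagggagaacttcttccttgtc
In this sequence the capitals mark GGGTCATAGGTCA, in a shared region with signals of 48 and 27. A direct repeat with 5 bases between was in 1 region, against 0.0214%. It lay in the domain of Nr6a1 at a start site of the antisense gene Nr6a1os, reads GGGTCATATATAGTTCA (chromosome 2, 38823231 to 38823247, plus strand), and its region had 97 and 26. These matches are descriptions and not evidence of binding.

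Thra and Nr1d1 lie tail to tail on chromosome 11, with overlapping 3′ ends, and 7 shared regions fell in the domains of both. There the order of the libraries was turned round. Replicate 2 had 58 peaks in the Thra domain and replicate 1 had 27, and in the Nr1d1 domain the counts were 35 and 12. The other members with more replicate 2 peaks were Nr2f1 (30 and 23), Rxrb (20 and 16), Nr2e1 (9 and 3) and Esr2 (11 and 8). These 6 members make 14.3% of the list, against 13.4% of all genes. Of the 58 replicate 2 peaks at Thra, 40 had no partner, a count that 40 protein-coding genes reached, Thra included. Their signals ran from 2 to 38 with a median of 6, which lay at percentile 5.81 of the list.

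Nearly all of these unpartnered peaks formed a single stretch. By a limit of 11 on the signal, chosen after the values were seen, 37 of them lay between 10.7 and 32.9 kb from the 5′ end of Thra, a span of 22.2 kb that runs through the 3′ part of Thra and most of Nr1d1. The stretch held 44 replicate 2 peaks and 7 replicate 1 peaks, with a median gap of 330 bp between neighbouring replicate 2 peaks. Hotspots of replicate 2 that reach into it had a total width of 15815 bp, against 3948 bp in replicate 1. Most of the hotspots of replicate 2 there, 21 of 32, carried the strongest q-value class. Of the 44 replicate 2 peaks there, the 37 had signals of at most 11 (percentile 20.2), but a partnered peak had 48. Which peaks lie in those 21 hotspots was not counted. Within the stretch lie the fourth start-site cluster of Thra (replicate 2 signal of up to 6) and the second of Nr1d1 (up to 5), so the replicate 2 promoter peaks at these starts belong to it. The shared promoters of both genes lie outside it. The cause of the stretch was not tested.

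Rows of adjacent peaks, meaning at least 3 peaks of a library with gaps of at most 150 bp, were another point of difference. Replicate 1 had a row in 2 member domains, 4.76% against 6.58% of all genes, and replicate 2 in 9, 21.4% (interval 11.7 to 35.9) against 10.5%. Rows were counted over whole domains, which are longer for receptor genes (median 76.5 kb against 37.4 kb), and the part of length was not tested. These counts moved strongly with the definition: with gaps of up to 500 bp they were 24 and 22, and with at least 4 peaks 1 and 3. The share of all genes was not counted under those other definitions. The replicate 1 rows were 4 peaks at the third start-site cluster of Esr1 (signals of 23 to 34) and 3 peaks in an intron of Pparg (32 to 44), neither with a replicate 2 peak or hotspot. The replicate 2 rows included 4 peaks over the first start of Nr3c2 (12 to 20) and 3 over its second (10 to 55), 3 at the start of Nr2f6 (19 to 39) and 3 at the third start-site cluster of Rara (11 to 15). At Nr2e1 replicate 2 had a row of 3 at the start site (20 each) and one of 4 in an intron (16 to 24). Nr6a1 had 2 rows of 3 in an intron (12 to 17 and 19 to 23), Thrb 1 of 3 in an intron (15 to 16), and Nr2f1 1 of 3 (12 to 27). Rxrb had 4 rows, all at promoters of neighbouring genes, and Ppard 1 of 4 peaks at a neighbour's promoter (19 to 40).

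Base composition was set beside the promoter calls. CpG observed-to-expected ratios were computed over the 500 bp on each side of the 5′ end, and genes were put into deciles. The share of all genes with a shared promoter region ran from 5.93% in the lowest decile to 96.5% in the highest. Of the 9 members without a shared promoter, 6 lay in the lowest 3 deciles: Vdr, Nr1i2, Nr1i3, Hnf4a, Nr2f2 and Nr0b2. The others were Nr2e3 in decile 5, Esrrg in decile 7 (where 90.4% of genes were shared) and Nr2f1 in decile 10. Going the other way, all 7 members in decile 4 (Thra, Rara, Nr1h4, Esr1, Esrrb, Nr3c1 and Nr6a1) were shared, in a decile with 39.2% of genes shared. Rarb was shared from decile 1, Nr5a2 from decile 2 and Nr5a1 from decile 3. In Rarb, Rarg, Rxra, Esrrb, Nr3c1, Nr5a1 and Nr5a2 the shared region lay at a start other than the one whose composition was measured. Among the members without a shared promoter, Vdr, Hnf4a, Nr2e3, Nr2f1, Nr2f2 and Esrrg have further start-site clusters whose composition was not measured. The only promoter peak of Esrrg lay 389 kb from its first cluster.

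The genes that work with the receptors were followed by lists. Coregulators were open throughout: all 10 coactivator genes and all 8 corepressor genes had a shared promoter region, against 61% of all genes. The coactivators with the most shared regions in their domains were Ppargc1b (11) and Nsd1 (9). Among corepressors, Ncor1, Tbl1xr1 and Nrip1 had 6 each. The lowest coregulator promoter was that of Ppargc1a, the coactivator of mitochondrial biogenesis, with 53 in replicate 1 and 17 in replicate 2.

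Genes listed for the handling of ligands had a shared promoter region in 12 of 29 cases, against 61% of all genes. Most make, carry or remove a ligand, but the steroid list also holds the receptor chaperones Fkbp4, Fkbp5 and Hsp90aa1. All of these chaperones had a shared promoter region. For retinoids 3 of 11 had a shared promoter region: the retinoic acid-making enzyme Aldh1a2 (74 and 21), the binding protein Crabp2 (80 and 18) and the retinol dehydrogenase Rdh10 (96 and 38). Replicate 1 had a promoter peak at 8 of the 11. Aldh1a1, Aldh1a3, Cyp26b1, Crabp1 and Stra6 had them in replicate 1 only, at signals of 33, 33, 76, 33 and 95, and Cyp26a1 and Cyp26c1 had none in either library. Stra6, a retinol transporter, had the most shared regions of the list (10), followed by Aldh1a2 and Aldh1a3 (4 each). Of the genes that handle thyroid hormone, the deiodinase Dio1 (22) and the transporter Slco1c1 (29) had replicate 1 peaks only, and Dio2, Dio3 and Ttr none. Dio1 also had 2 shared regions in its domain.

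For steroids and sterols 8 of 12 were shared, near the background, with the chaperones counted among the 8. Cyp46a1, which makes the brain's main oxysterol, had 141 and 79 and 9 shared regions, and Fkbp5, a chaperone partner of the glucocorticoid receptor, had 131 and 72 and also 9. Hsd11b1 (67), Cyp27a1 (45) and Star (22) had promoter peaks in replicate 1 only, and Cyp11a1 in neither. Among 10 known target genes 8 were shared, against the same 61%, with the most regions at the clock genes Per1 (13; 144 and 85) and Arntl (11; 143 and 77). Hr, a thyroid hormone target, had a replicate 1 peak only (63), and Cyp7a1, the rate-limiting enzyme of bile acid synthesis in liver, had none. The 29 ligand genes depended on the library: 12 had a promoter peak in replicate 2, against 62.6% of all genes, and 21 in replicate 1, against 68.9%.

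**Figure D5:**
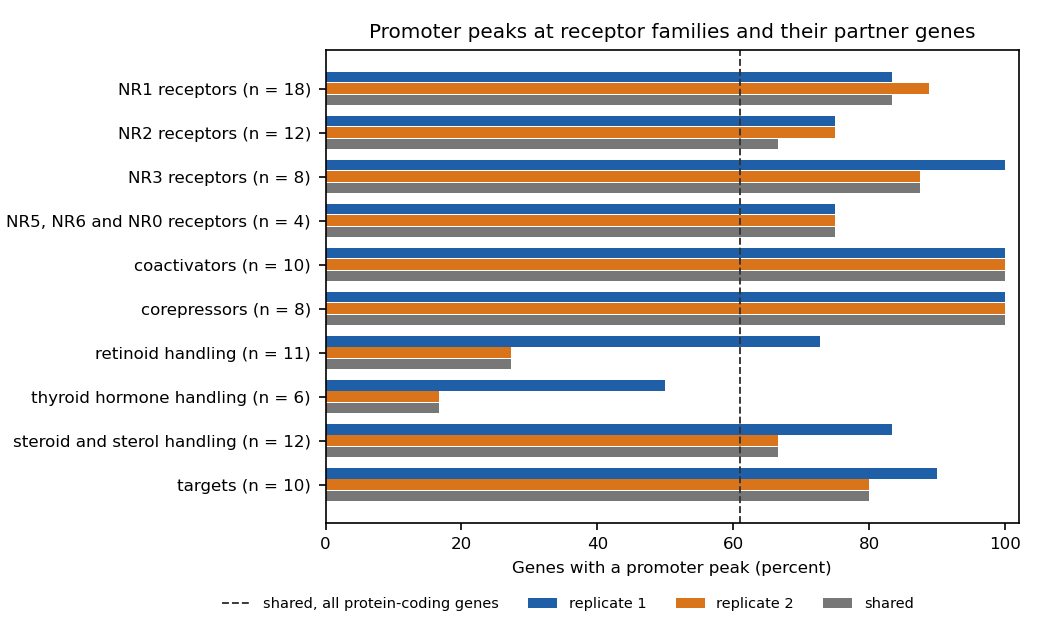
Percent of genes (x axis) with a promoter peak in replicate 1 (blue), in replicate 2 (orange) and with a shared promoter region (grey), for the receptor families and for lists of coregulators, ligand handling genes and targets. The dashed line is the share of all protein-coding genes with a shared region, 61%. Coregulators reach 100% in both libraries, and retinoid and thyroid hormone handling genes lie under the line when both libraries are required.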

How the data were processed

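DNase-seq of newborn midbrain was analysed from the processed files of 2 biological replicates. Per the deposited text beside the lists, peaks and hotspots were derived from the alignments of each replicate on mm10. The aligner, the caller and their settings were not given in the sources used here. The authors deposited a signal for each peak, a whole number of undefined scale, and for each hotspot a q-value as −log10, with 100 as the strongest class. The deposited display score of hotspots was not used.

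Of 228440 and 122838 listed peaks, 215 and 221 on other sequences and 22 and 24 repeated positions were left out. Peaks of both libraries that overlap or touch were merged, and a region with a peak of each library was called shared. Gene models came from GENCODE M21 (mm10) and sequence from RefSeq GRCm38.p6, and 0 intervals ran past a chromosome end. Receptor genes were matched by symbol, all 42 of them. RefSeq promoters were matched for 38. With 1 group of 2 libraries no test was made. Wilson intervals cover counting error only, read depth is unknown, and the spread between libraries may be technical. Genes are not independent replicates.

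Members, lists and settings were chosen with earlier results of these data known. Every member is accounted for. Fullest detail went to the 10 members with the most shared regions, the 5 strongest shared promoters, members whose promoter state differs between libraries, and rows of peaks. From each partner list, genes without a shared promoter and the 2 with the most shared regions are named, and others named there were chosen after their values were seen. Some list genes and a sequence that these rules take are not reported here. The sequence rule was narrowed to regions outside exons after the regions were seen. Functions were checked on made-up intervals. Python 3.11.15, numpy 2.4.6, pysam 0.24.0 and matplotlib 3.10.9 were used. Other windows, start sites, peak strengths, overlaps, gaps and hotspots were tried, and each replicate was left out in turn.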

Additional observations from a re-analysis of the deposited data

How the results depend on the processing

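The count of 33 receptor genes with a shared promoter region lay between 26 (5′-most start only) and 34 (window of 1000 bp, or hotspots) under 8 other settings, and was 35 with either replicate alone. The share of all genes moved too. With the 5′-most start only it was 55.4%, against 61.9% of members. With the stronger 50% of the peaks the shares were 57.8% of all genes and 66.7% of members. All genes had 68.9% with replicate 1 alone and 62.6% with replicate 2 alone, against 83.3% of members in each. The members' share was the higher in every setting, by an amount that varied. Under the 8 other settings 22 members stayed shared and 8 stayed not shared. The 12 others changed in at least 1: 11 shared members lost the call, most often with the 5′-most start alone or the stronger 50% of the peaks, and Nr2f1 gained it with a window of 1000 bp and with hotspots. The 248 shared regions in the domains became 418 with 50 kb on each side, and with a single replicate the merged peaks numbered 402 to 707. Rows in replicate 1, found in 2 members, numbered 0 with gaps of 50 bp, 24 with gaps of 500 bp, 1 with at least 4 peaks and 0 with the stronger 50% of the peaks. Rows in replicate 2, found in 9 members, numbered 3, 22, 3 and 5 under the same settings. The 12 ligand handling genes with a shared promoter, counted under settings added after seeing the data, were 12 to 21 with a single replicate, 8 with a window of 250 bp, 10 with the 5′-most start or protein-coding transcripts only, 11 with an overlap of at least 50% and 12 under the others, and the 18 coregulators 17 or 18 throughout. No paired analysis was possible because there is only 1 group. Unknown depth limits every call: a promoter without a peak was not detected as open, which does not show that it was closed.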
